A study of Mus musculus with 12 samples.

Results

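The microRNAs miR-23a, miR-27a, miR-23b, miR-27b and miR-24 were followed in primary murine pulmonary endothelial cells that had been stimulated through the innate immune receptors NOD1 or NOD2. They were selected by name, with earlier results of these data known. The TaqMan assays were mmu-miR-23a, mmu-miR-23b, mmu-miR-24, mmu-miR-27a and mmu-miR-27b, which made up 5 of the 375 miRNA assays of the array. The cells came from lungs of male C57BL/6N wild type mice aged 6 to 10 weeks, with 3 mice pooled for each isolation, and were enriched with magnetic beads against CD144 and then against CD31. All cells were starved in low serum for 2 hours. Unstimulated cells served as control for both ligands: Tri-DAP, a peptidoglycan fragment sensed by NOD1, and MDP (muramyl dipeptide), a fragment sensed by NOD2, each given at 10 µg/mL for 6 hours. Each of the 3 groups was measured on 4 TaqMan low-density arrays (TLDA), 384-well PCR cards read as Ct, the PCR cycle at which a signal crosses its threshold, so that an earlier Ct means more RNA. Arrays are named below by group and by the number in their label. The paper describes independent cell isolations behind the arrays, so a control, a Tri-DAP and an MDP array may share an isolation. Neither the paper nor the labels tell which arrays do. Unless pairs or a block are named, the tests below treat arrays as unpaired. Their p-values measure the spread between these 12 arrays only.

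These miRNAs are known as a pair of duplicated gene clusters. In each cluster a single primary transcript carries a miR-23, a miR-27 and a miR-24 hairpin, which Drosha and Dicer cut into separate mature miRNAs, so that the level of each mature form depends on transcription of the cluster and also on its own processing and decay. The miR-23 and miR-27 families are known for promoting vessel sprouting in endothelial cells, miR-27 among other routes by repressing Sprouty and semaphorin mRNAs, and miR-24 is known to restrain endothelial survival and growth in poorly perfused tissue. A miRNA recognises its targets mainly through its seed, here bases 2 to 8.

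The mature sequences show why the assays must be read as relatives and not as copies. Each is written 5′ to 3′ as RefSeq gives it, with the seed in capitals. The assay names carry no arm, and the assays were matched to the 3p forms.
miR-23a-3p: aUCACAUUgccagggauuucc
miR-27a-3p: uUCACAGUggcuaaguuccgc
miR-27b-3p: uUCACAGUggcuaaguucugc
miR-24-3p: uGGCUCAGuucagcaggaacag

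Both miR-27 paralogs share 1 seed and 20 of their 21 bases, and differ by C19U, counted from the 5′ end with the miR-27a base first. How far each of the miR-27 assays also reads the other paralog was not tested. Within their first 8 bases, miR-23a and miR-27a differ by A1U and U7G, with the miR-23a base first, so their seeds are alike but not the same. Seeds were counted in a RefSeq table of 1679 mature mouse miRNAs, in which miR-23b was not matched, so its seed is in none of the counts and how many share the seed of miR-23a is not given. The seed of miR-27 occurred in 2 entries, its paralogs. The seed of miR-24 occurred in 5 entries, and the other 4 of them (miR-5124b, miR-6369, miR-6410 and miR-6413) have no assay on this array. The mature miR-23b sequence is not printed here.

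In the mouse build GRCm38.p6 the first cluster lies on the plus strand of chromosome 8, with its 3 hairpins Mir23a, Mir27a and Mir24-2 at 84208518 to 84208921, a span of 404 bases. There the mature miR-23a-3p occupies chr8:84208563-84208583, miR-27a-3p chr8:84208727-84208747 and miR-24-3p chr8:84208875-84208896. The second cluster lies on the plus strand of chromosome 13, with Mir23b, Mir27b and Mir24-1 at 63300484 to 63301275, a span of 792 bases. It holds miR-27b-3p at chr13:63300760-63300780 and a second copy of miR-24-3p at chr13:63301251-63301272. The hairpins stand closer together in the first cluster, with gaps of 79 and 56 bases, than in the second, with 154 and 423. Because both copies give the same mature miR-24, its single assay reads the output of both clusters. The other 4 assays are each named for 1 paralog, and their specificity was not tested.

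All 12 arrays gave a threshold crossing for 231 to 254 of the miRNA assays, and 174 assays were measured on every array. The mean Ct of the 4 wells for U6, a small nuclear RNA to which the authors normalized, ran from 18.3 on Tri-DAP 14 to 21.6 on Tri-DAP 8, and the SD among these 4 wells was between 0.112 and 2.05 cycles within an array. The endothelial label was checked on both arms of miR-126, the defining endothelial miRNA. Median Ct of miR-126-3p was 19.6 in control, 19.8 in Tri-DAP and 19.6 in MDP, and that of miR-126-5p 21.2, 21.3 and 21.3.

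Of the 5 miRNAs, 4 stayed within 2 cycles over all 12 arrays, and miR-23a did not. miR-24, the form made by both clusters, had the earliest Ct of the family. Its control arrays 4, 7, 10 and 13 read 21.3, 20.8, 22.0 and 21.8, Tri-DAP arrays 5, 8, 11 and 14 read 21.2, 21.7, 21.5 and 21.9, and MDP arrays 6, 9, 12 and 15 read 21.2, 21.4, 21.6 and 22.1. The ranges of the 3 groups overlapped. By mean Ct miR-24 stood 8th of the 320 miRNA assays measured at all, miR-27a 74th, miR-27b 85th, miR-23a 115th and miR-23b 126th, which ranks assays and not molecules because assays differ in efficiency.

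For miR-27a, the middle hairpin of the first cluster, control arrays in the same order read 27.7, 27.8, 27.8 and 28.4, Tri-DAP arrays 27.4, 28.3, 27.4 and 28.3, and MDP arrays 27.5, 28.0, 27.7 and 28.2. Its paralog miR-27b read 28.2, 28.1, 28.0 and 28.3 in control, 28.0, 28.7, 27.9 and 28.1 in Tri-DAP and 28.1, 28.5, 28.1 and 28.8 in MDP. For both miR-27 forms the groups overlapped throughout. The Ct of miR-23b, the first hairpin of the second cluster, was 29.4, 31.0, 30.3 and 29.2 in control, 29.2, 30.3, 29.5 and 29.7 in Tri-DAP and 29.3, 30.2, 30.1 and 30.5 in MDP, again with overlapping groups.

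For miR-23a, which shares its primary transcript with miR-27a, the control arrays 4, 7, 10 and 13 read 28.2, 29.6, 25.0 and 29.8. The Tri-DAP arrays 5, 8, 11 and 14 read 31.9, 30.9, 29.8 and 30.7. MDP arrays 6 and 9 read 29.2 and 29.5, and on MDP arrays 12 and 15 no threshold was reached within 40 cycles. Control 10 was earlier than every other array, and the latest control array stood at 29.811, just ahead of the earliest Tri-DAP array at 29.838. Without normalization, Tri-DAP and control thus did not overlap for miR-23a, while they overlapped for its 4 relatives. Over the 181 assays tested and measured on all 8 of these arrays, 1.66% had groups that did not overlap, miR-23a among them. Chance alone separates 4 arrays from 4 in a share of 0.0286, which is more than that. In RNA of whole cultures, fewer cells of a type and less RNA per cell cannot be told apart.

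**Figure D1:**
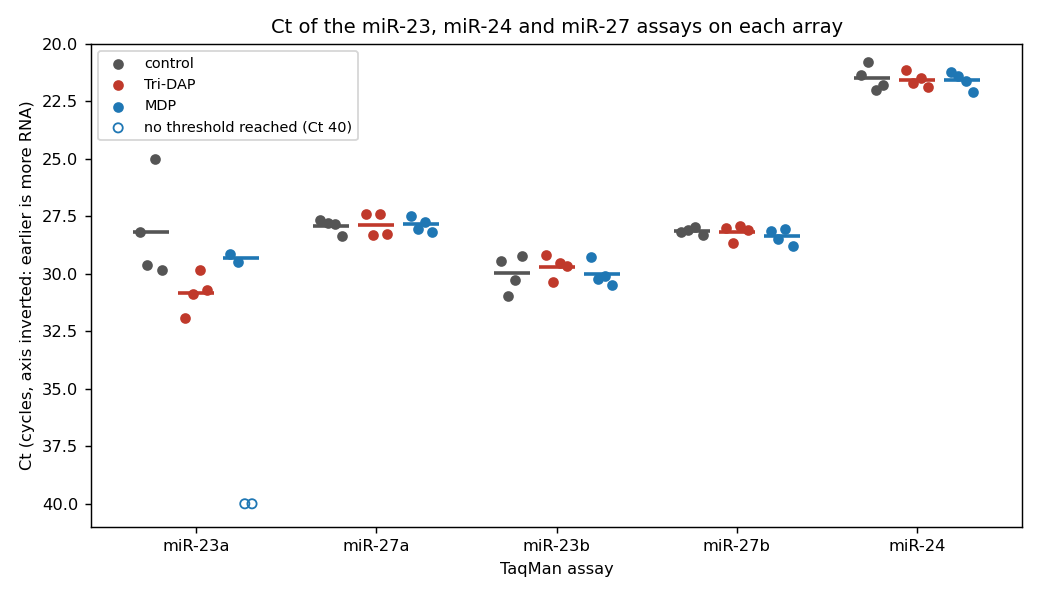
Ct of each assay on the 12 arrays, with the vertical axis in cycles and inverted so that more RNA is higher; filled points are arrays coloured by group, bars are group means of measured wells, and open points are wells that reached no threshold by cycle 40. The points of miR-24, miR-27a, miR-27b and miR-23b lie close together in all 3 groups, whereas miR-23a runs from 25.0 on control 10 to 31.9 on Tri-DAP 5 and is undetermined on 2 MDP arrays.

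The comparison of Tri-DAP with control asks which of these miRNAs respond to NOD1 stimulation. On the scale of log2 expression relative to U6, that is minus the Ct difference to the U6 wells, miR-23a was at -8.36, -9.58, -5.76 and -10.36 in control 4, 7, 10 and 13. In Tri-DAP 5, 8, 11 and 14 it was at -12.24, -9.28, -11.28 and -12.43. Tri-DAP 5, 11 and 14 lay below all control arrays, and Tri-DAP 8, the array with the latest U6, lay among them. The group means were -8.52 ± 2.02 (SD, n = 4) in control and -11.31 ± 1.44 (SD, n = 4) in Tri-DAP. The log2 difference of -2.79 (SE 1.03, 95% interval -5.06 to -0.52), 6.92-fold lower in Tri-DAP, passed limma's unadjusted threshold of 0.05 (p = 0.0206, with p = 0.0857 by the two-sided exact permutation test over arrays). After Benjamini-Hochberg adjustment over 237 assays limma's adjusted p was 0.998. On Ct without normalization the exact permutation p was 0.0286, the smallest that 4 arrays against 4 can give.

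Of the 5 miRNAs, 1 was called by that threshold, against 1.69% of all tested assays, or 4 of 237, all of them lower in Tri-DAP. That share is below what a threshold of 0.05 would pass by chance alone. miR-23a is itself among these 4, and the family was chosen with earlier results of these data known. Its call is therefore no separate support. The cluster mates of miR-23a did not pass. For miR-27a the log2 difference was -0.06 (95% interval -1.62 to 1.50), with means of -8.32 ± 1.41 in Tri-DAP and -8.26 ± 0.58 in control. For miR-24 it was -0.20 (-1.94 to 1.54). The second cluster gave 0.18 (-1.41 to 1.77) for miR-23b and -0.13 (-1.53 to 1.27) for miR-27b. The permutation p of these 4 lay between 0.80 and 0.943 (exact, two-sided). Their intervals relative to U6 still hold changes of more than 2-fold in either direction. The median log2 difference over all assays was -0.24.

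The call of miR-23a rested on several single arrays. The log2 difference was -1.87 without control 10, -2.48 without Tri-DAP 5 and -2.42 without Tri-DAP 14, and in each of these cases it no longer passed limma's unadjusted threshold. Leaving out any of the other 9 arrays kept the call, with differences from -3.47 to -2.74. All 12 values were below 0.

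**Figure D2:**
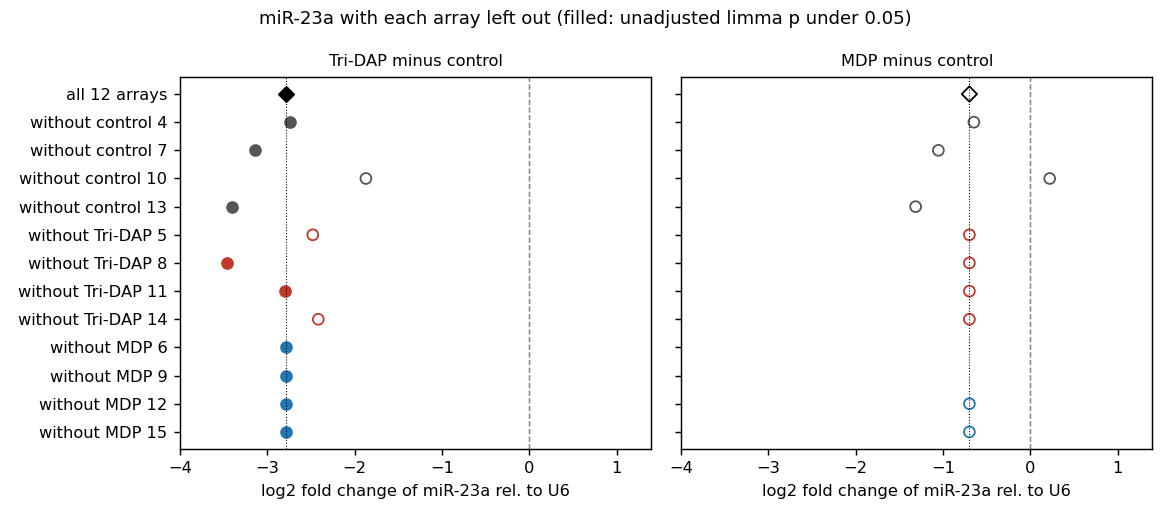
Log2 difference of miR-23a relative to U6 with all arrays (diamond, dotted line) and with each array left out (circles, coloured by the group of the array left out); filled symbols have an unadjusted limma p under 0.05. Against Tri-DAP the difference stays below 0 and moves to -1.87 without control 10, and against MDP it crosses 0 to 0.22 without that array; MDP 6 and MDP 9 cannot be left out on the right because 1 measured MDP array would remain.

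The comparison of MDP with control asks the same of NOD2 and uses the same control arrays. None of the 5 miRNAs was called by limma's unadjusted threshold, against 1.23% of the 244 assays tested (0.820% higher and 0.410% lower). The lowest unadjusted p of the 5 was 0.593, and the exact permutation tests gave none under 0.05 either. For miR-23a only the MDP arrays 6 and 9 had a value, -8.94 and -9.49, and both lay inside the range of the control arrays. The log2 difference over these was -0.70 (SE 1.27, 95% interval -3.49 to 2.10), with a permutation p of 0.933 (exact, two-sided) where 2 arrays against 4 can go no lower than 0.133. Undetermined wells were the other feature of miR-23a under MDP: 2 of 4 arrays, against 0 of 4 in control and 0 of 4 in Tri-DAP. Fisher's exact test gave p = 0.429 against either group. That is the smallest p that 2 such wells can give with 4 arrays in each group, so the test could not show a difference. No other miRNA of the family had an undetermined well. The remaining log2 differences were 0.07 (-1.48 to 1.63) for miR-27a, -0.08 (-1.82 to 1.66) for miR-24, -0.02 (-1.61 to 1.57) for miR-23b and -0.20 (-1.59 to 1.20) for miR-27b.

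How miR-23a stood under MDP depended on these wells. With both undetermined wells entered as Ct 40, the log2 difference to control became -6.49 and passed the unadjusted threshold of limma, and the Tri-DAP call was lost at the same size of -2.79 because the wells at 40 widened the shared estimate of the spread (SE 2.66). A well at 40 gives at most a bound on the level, and a failed well gives none, so neither value measures the size of a change. Whether these 2 wells failed was not tested.

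Set directly against each other, MDP and Tri-DAP differed for none of the 5 miRNAs by limma's unadjusted threshold, with 2.90% of 241 assays called and a lowest p of 0.129 among the 5. For miR-23a the measured MDP arrays lay above 3 of the 4 Tri-DAP arrays, and MDP 9 below Tri-DAP 8, with a log2 difference of 2.09 (SE 1.27, 95% interval -0.72 to 4.90) and an exact permutation p of 0.267. These values are relative to U6. On Ct without normalization the 2 measured MDP arrays were earlier than all Tri-DAP arrays. The exact permutation p was 0.133 there, the smallest that 2 arrays against 4 can give. For the relatives the difference between ligands relative to U6 was between -0.20 and 0.13. The response of miR-23a to Tri-DAP was therefore not shown to differ from that to MDP.

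**Figure D3:**
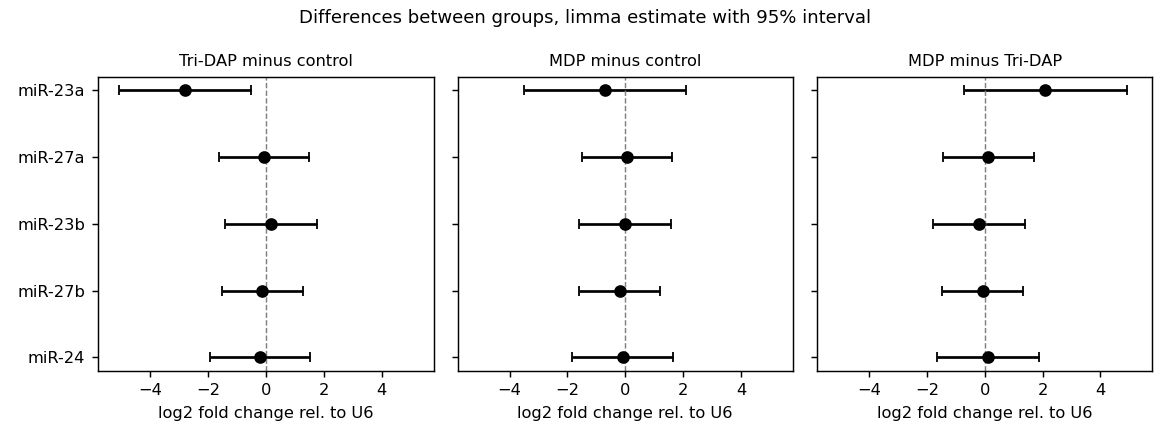
Log2 difference relative to U6 for each assay (points) with its 95% interval from limma (bars) in the 3 comparisons; the dashed line marks no difference. The interval of miR-23a in Tri-DAP minus control, -5.06 to -0.52, is the one of 15 that leaves out 0.

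Measuring the miRNAs against each other on the same array removes U6 and the RNA input. The difference of miR-23a to the mean of its 4 relatives was -1.53, -2.71, 2.01 and -2.89 on control 4, 7, 10 and 13. On Tri-DAP 5, 8, 11 and 14 it was -5.48, -3.62, -3.25 and -3.73, and on MDP 6 and 9 it was -2.63 and -2.47. All Tri-DAP arrays lay below all control arrays, and the MDP arrays lay among the controls. Of 177 assays set against the same 4 relatives and measured on all 8 arrays, 1.69% had groups that did not overlap, miR-23a among them. Chance alone separates 4 arrays from 4 in a share of 0.0286, which is more than that. The comparison uses the same miR-23a wells as the call relative to U6 and is no separate support. Tri-DAP differed from control by -2.74 (means -4.02 ± 0.99 and -1.28 ± 2.27, SD, n = 4 each). With the arrays taken as unpaired, the exact two-sided permutation p was 0.0286, the smallest possible. Without control 10 the difference was -1.64, and the groups still did not overlap (exact permutation p = 0.0571, the smallest that 3 arrays against 4 can give). For MDP it was -1.27 (p = 0.80, exact).

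The 10 pairs of miRNAs were compared for both ligands, 20 comparisons in all. Under Tri-DAP miR-23a moved against its cluster mate miR-27a by -2.73 and against miR-27b by -2.66, each without overlap and with an exact permutation p of 0.0286 that treats the arrays as unpaired. Against its paralog miR-23b the shift was -2.97 and against miR-24 -2.59, with an exact p of 0.0857 each. limma fits of all assays relative to each mate gave 95% intervals of -4.98 to -0.48 against miR-27a, -4.83 to -0.50 against miR-27b, -5.45 to -0.50 against miR-23b and -5.17 to -0.01 against miR-24. After Benjamini-Hochberg adjustment in limma the p-values of these 4 were between 0.927 and 0.997. The 4 shifts share the same miR-23a wells and are 1 observation seen 4 times. Shared isolations would make control and Tri-DAP arrays pairs, which the unpaired p of 0.0286 leaves out. Neither the labels nor the paper state the pairs. Arrays of consecutive label numbers were therefore also taken as pairs (4 and 5, 7 and 8, 10 and 11, 13 and 14). In these pairs miR-23a moved against miR-27a by -3.98, -0.70, -5.25 and -0.99. All 4 shifts were below 0 and most of the size lay in the first and the third, and the exact sign-flip p was 0.125, the smallest that 4 pairs can give, so that none of the 20 comparisons passed in this form. Under MDP the shift of miR-23a was at most -1.41 in size, against miR-23b, and the exact p of its 4 pairs ran from 0.533 to 0.80.

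The pairs without miR-23a shifted less, but how closely pairs of unrelated assays hold together was not tested. The 12 comparisons of the other 6 pairs gave shifts between -0.16 and 0.38, exact permutation p from 0.114 to 0.943, and limma intervals that stayed within -1.16 and 1.60. The tightest pair were the miR-27 paralogs, which come from different chromosomes. miR-27a minus miR-27b was 0.54, 0.34, 0.14 and -0.05 in control, 0.62, 0.32, 0.49 and -0.18 in Tri-DAP and 0.68, 0.45, 0.34 and 0.59 in MDP. The SD of this difference over 12 arrays was 0.268, against 0.328 for miR-24 and miR-27a and 0.385 for miR-24 and miR-27b. Pairs with miR-23b were looser, up to 0.691 for miR-23b and miR-24, and pairs with miR-23a ran from 1.82 to 2.10 over the 10 arrays that measured it.

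**Figure D4:**
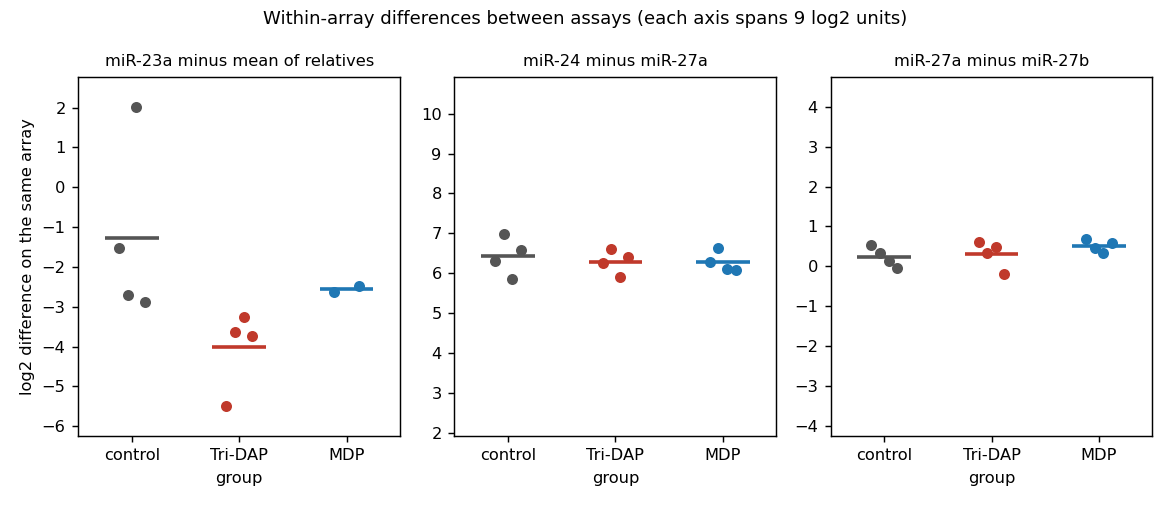
Differences in log2 level between assays of the same array for miR-23a minus the mean of miR-23b, miR-24, miR-27a and miR-27b, for miR-24 minus miR-27a and for miR-27a minus miR-27b; points are arrays, bars are group means and each axis spans the same 9 log2 units. Tri-DAP lies below control on the left, -5.48 to -3.25 against -2.89 to 2.01, while the groups overlap in the other panels.

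The spread over all arrays was larger for miR-23a than for its relatives, but it holds the same wells as the comparisons above. In Ct, without normalization, the SD over arrays was 0.273 for miR-27b, the smallest of the 174 assays measured on every array, 0.359 for miR-27a, 0.385 for miR-24 and 0.585 for miR-23b. The median of these 174 assays was 0.767. For miR-23a it was 1.87 over 10 arrays, larger than in 90.8% of the 174. Within groups the Ct SD of miR-23a was 2.22 in control, which holds the early control 10, and 0.853 in Tri-DAP. miR-27b stayed within 0.865 cycles over all 12 arrays. Relative to U6 the 4 relatives were no longer unusual, with SDs of 0.749 for miR-27b, 0.890 for miR-27a, 0.921 for miR-23b and 1.05 for miR-24 against a median of 0.922, and miR-23a, at 1.97, was more variable than 96.0%. Normalization to U6 thus raised the SD of miR-27b from 0.273 to 0.749 while the mean U6 Ct moved by more than 3 cycles between arrays. In Tri-DAP minus control the limma SE relative to U6 was 0.648 for miR-27b, 0.721 for miR-27a, 0.805 for miR-24 and 0.736 for miR-23b. Without normalization it was 0.309, 0.355, 0.368 and 0.468 in the same order. For miR-23a the SE was 1.03 relative to U6 and 0.997 without normalization. The intervals of the 4 relatives were thus narrower without U6. What part the U6 wells have in this, apart from RNA input, was not tested.

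**Figure D5:**
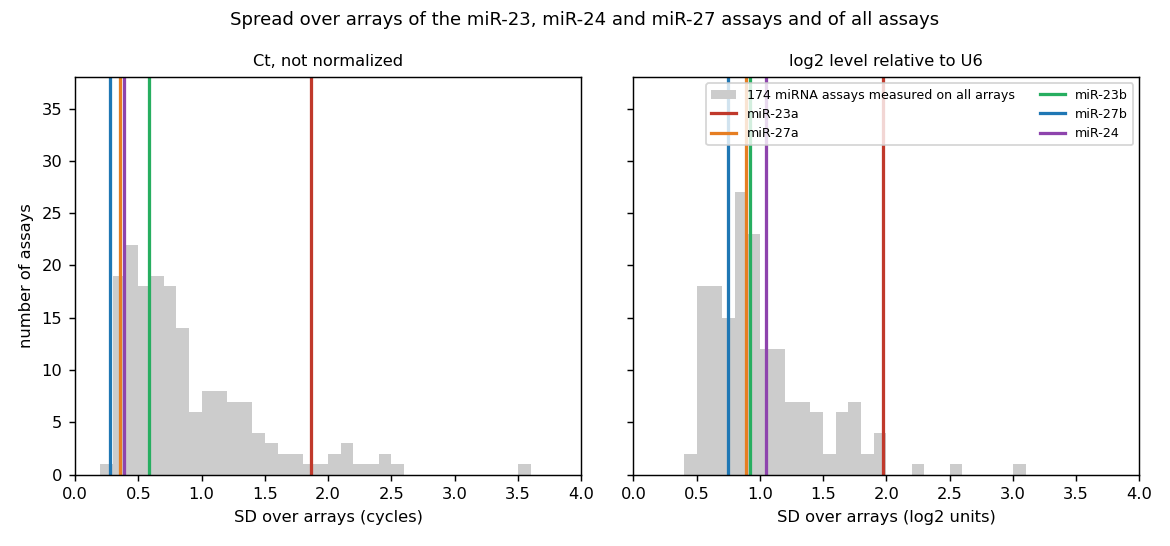
Histograms of the SD over 12 arrays of the 174 assays measured on every array, for Ct in cycles (left) and for log2 level relative to U6 (right), with vertical lines at the 5 assays; the miR-23a line is over its 10 measured arrays. On the left miR-27b at 0.273, miR-27a at 0.359 and miR-24 at 0.385 stand at the low end and miR-23a at 1.87 in the upper tail; on the right only miR-23a, at 1.97, stands apart.

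Likeness over arrays was described by Pearson's r of log2 levels relative to the mean of the 174 common assays. These points share array, RNA and that mean. miR-24 and miR-27a had r = 0.88, miR-27a and miR-27b 0.87 and miR-24 and miR-27b 0.86 over 12 arrays, and miR-23b had 0.39 to 0.43 with each of them. On Ct without normalization these fell to 0.61, 0.67, 0.35 and 0.03 to 0.36. The 3 assays most like miR-24 were miR-34a (0.93), miR-331-3p (0.93) and miR-29a (0.92), those most like miR-27a were miR-34a, miR-29a and miR-29b (0.94 each), and those most like miR-27b were miR-27a (0.87), miR-34a (0.87) and miR-29b (0.86). For miR-23b they were miR-181a (0.78), miR-367 (0.77) and miR-685 (0.77). Over its 10 arrays miR-23a was most like miR-337-5p (0.73), miR-491 (0.66) and miR-467b (0.62). None of its own family was among these: in this order of 174 assays miR-27b stood at place 35, miR-27a at 47, miR-24 at 97 and miR-23b at 159. miR-24, miR-27a and miR-23b had no relative among their first 3 either, with the nearest at places 6, 15 and 24 of 173 assays.

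Other miRNAs with known roles in endothelial cells and vessel growth were read from a list of 30, among them both arms of miR-126, miR-221, miR-222, the miR-17 cluster, miR-155, miR-146a and miR-34a. Of these, 27 were on the array and 26 were tested, and 0 were higher and 0 lower by limma's unadjusted threshold in Tri-DAP against control, in MDP against control and in MDP against Tri-DAP. Over all tested assays the shares called were 1.69%, 1.23% and 2.90%, so 0 of 26 does not set the list apart. The median log2 difference of the 26 was -0.19 under Tri-DAP and -0.06 under MDP, beside -0.24 and -0.02 over all assays. miR-126-3p differed by -0.05 under Tri-DAP and -0.01 under MDP.

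Markers of other cell types that a lung isolation can hold were set beside the miR-23a result. Under Tri-DAP against control 0 of 3 tested leukocyte, 0 of 6 epithelial and 0 of 5 smooth muscle and fibroblast miRNAs were called, and the counts were the same for MDP against control. The shares called over all assays were 1.69% and 1.23%, so 0 called in lists this short does not show unchanged cell composition. In MDP minus Tri-DAP 1 of 6 smooth muscle and fibroblast miRNAs was called and none of the other lists, beside 2.90% of all tested assays. This was the muscle miRNA miR-1, with a log2 difference of 4.87 (SE 1.68, limma adjusted p = 0.998). It was measured on only 3 control, 2 Tri-DAP and 3 MDP arrays, at Ct from 27.7 to 34.3. In Tri-DAP minus control miR-1 differed by -3.03 (SE 1.66) without passing the threshold, a value as large as that of miR-23a but from fewer arrays. The erythroid marker miR-451 was measured on 1 array of each group and not tested. The summed log2 level of the leukocyte list relative to U6 was -9.89 to -8.99 in control, -11.5 to -8.34 in Tri-DAP and -9.70 to -9.38 in MDP. The epithelial list was at -11.6 to -5.71, -9.55 to -8.32 and -9.72 to -6.70. The smooth muscle and fibroblast list was at -7.70 to -2.32, -6.81 to -3.60 and -7.94 to -2.38, with 1 array of each group (control 13 at -2.32, Tri-DAP 14 at -3.60 and MDP 15 at -2.38) at the upper end and another (control 7 at -7.70, Tri-DAP 8 at -6.81 and MDP 9 at -7.94) at the lower end; the arrays at each end carry consecutive label numbers. Control 10, the array with the earliest miR-23a, was at -5.61 on that list. The part of these cells in the miR-23a values was not tested.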

How the data were processed

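Total RNA of 12 cultures was measured on TaqMan low-density arrays, and the labels gave the group of each array. According to the methods, each array ran for 40 cycles with an automatic threshold. The authors deposited Ct values, with 40 where no threshold was reached, and normalized values, which were checked to be Ct minus the mean of the 4 U6 wells (largest difference 5.33e-15). The deposited table of fold changes holds the authors' own comparisons and was not used, nor were 12 unnamed columns of the Ct table. RefSeq sequences were matched by name.

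The sign of the normalized values was turned to give log2 expression relative to U6. Wells at 40 were set missing, and an assay was tested with at least 2 measured values in both groups. The miRNA assays of all 12 arrays were fitted together with limma 3.58.1 in R 4.3.3 (lmFit, then eBayes, no block). An assay was called where limma's p before adjustment was under 0.05, and Benjamini-Hochberg values are given as well. Single miRNAs and within-array differences between them were tested by two-sided exact permutation over arrays (scipy 1.17.1), and undetermined wells by Fisher's exact test. The fit was tested on simulated data. Named miRNAs were the 5 of the family, the 3 assays most like each, assays sharing a seed, both arms of miR-126 and any called assay of the endothelial list. These miRNAs, lists and alternatives were chosen with earlier results of these data known. The alternatives were other references, treatments of late wells, filters, tests, a block of consecutive label numbers and each array left out. The number of arrays limits the precision.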

Additional observations from a re-analysis of the deposited data

Results flagged for a closer look

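miR-23a minus miR-27a was -4.52 on Tri-DAP 5, whereas the other Tri-DAP arrays 8, 11 and 14 lay at -2.55, -2.43 and -2.44. The gap of this array to its nearest neighbour was 0.938 of the whole range of the group, above Dixon's critical value for 4 samples at the 95% level. Of 56 groups of 4 arrays examined in this way 1 stood out, and chance alone gives about 1 in 20, or 2.8 of 56. Without Tri-DAP 5 miR-23a relative to U6 differed between Tri-DAP and control by -2.48 on the log2 scale and was no longer called.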

How the results depend on the processing

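The Tri-DAP difference of miR-23a was below 0 under every alternative run, and its call (unadjusted limma p) was kept with snoRNA202 added to U6, with the mean of the common assays, without normalization, with a Ct limit of 35, with stricter filters, with only both groups in the fit, with trend and robust eBayes and with a replicate block of consecutive label numbers. With undetermined wells at Ct 40, 0 of the 5 miRNAs were called under Tri-DAP (miR-23a -2.79) and 1 under MDP (miR-23a -6.49), and miR-23a turned to -3.70 in MDP minus Tri-DAP. With the methods' t-test in its equal-variance form, 0 were called (miR-23a -2.79). Relative to the mean of the common assays the sign turned for miR-24 (0.032), miR-27a (0.17) and miR-27b (0.11) under Tri-DAP, for miR-23b under MDP (0.015), and for miR-24 (-0.082) and miR-27a (-0.067) in MDP minus Tri-DAP. Without normalization it turned for miR-27a under Tri-DAP (0.056) and for miR-24 in MDP minus Tri-DAP (-0.014). None of these relatives was called in either form, and the cause of the turns was not tested. Of the pair comparisons, 0 passed with the replicate block, where miR-23a against the mean of its relatives kept -2.74 with an exact p of 0.125, the smallest that 4 sets can give, and 4 passed with limma relative to the mate. The differences of the 4 sets were -3.95, -0.91, -5.26 and -0.85. The labels do not state such sets.

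With each array left out, the calls numbered 0 to 1 under Tri-DAP, 0 to 1 in MDP minus Tri-DAP and 0 to 2 of the pair comparisons. For miR-23a the Tri-DAP difference ran from -3.47 to -1.87, that of MDP from -1.31 to 0.22, above 0 only without control 10, and MDP minus Tri-DAP from 1.72 to 2.77, called only without Tri-DAP 8. miR-23a against the mean of its relatives ran from -3.28 to -1.64 under Tri-DAP. Values of the relatives crossed 0. Under Tri-DAP the ranges were -0.29 to 0.60 for miR-23b, -0.84 to 0.32 for miR-24, -0.59 to 0.50 for miR-27a and -0.66 to 0.26 for miR-27b. Under MDP they were -0.46 to 0.32, -0.39 to 0.28, -0.24 to 0.35 and -0.46 to 0.018, and in MDP minus Tri-DAP -0.64 to 0.27, -0.41 to 0.76, -0.43 to 0.66 and -0.46 to 0.46. Pair shifts under Tri-DAP ran from -0.18 to 0.74 for miR-23b minus miR-24, -0.14 to 0.65 for miR-23b minus miR-27a, -0.038 to 0.62 for miR-23b minus miR-27b, -0.33 to 0.042 for miR-24 minus miR-27a, -0.30 to 0.14 for miR-24 minus miR-27b and -0.033 to 0.23 for miR-27a minus miR-27b. Under MDP the first 5 ran from -0.50 to 0.42, -0.47 to 0.32, -0.17 to 0.49, -0.35 to 0.027 and -0.11 to 0.33. miR-23a under MDP has no value with 3 or more measured arrays required, or without MDP 6 or MDP 9.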
